A study of Mus musculus with 16 samples.

Results

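Myostatin, the activins and their receptors were followed in gastrocnemius, a muscle of the calf, through 10 genes looked up by symbol in a table of 21923 genes: the ligand genes Mstn, Inhba and Inhbb, the receptor genes Acvr2a, Acvr2b and Acvr1b, the antagonist genes Fst and Fstl3, the signal carrier Smad3 and the inhibitory Smad7. Poly(A) RNA was sequenced in 16 libraries, each taken here as 1 mouse, since the labels do not say whether a library is 1 mouse or a pool. NOR, CAC, AM, and KD each had 4 mice, and a library held 35913190 to 61032708 counted reads. NOR mice received PBS instead of tumor cells. CAC mice carried a subcutaneous tumor and were given PBS, AM mice carried the same tumor and were given 2 mg/kg amiloride, a potassium-sparing diuretic, every day from day 9, and tumors of KD mice were grown from cells in which Rab27, needed for exosome release, had been knocked down. All muscle was collected on day 30. Replicates 1 and 2 of every group carry the label C57BL/6, bearing LLC (Lewis lung carcinoma) tumors where tumors were given, and replicates 3 and 4 the label BALB/c (written BABL/c in the labels), bearing CT26 (colon carcinoma) tumors, so that host strain and tumor line cannot be told apart. The labels' protocol gives C57BL/6 mice as male and BALB/c mice as male and female, whereas the study's methods give mice of both strains as male, and the knock-down was made in the tumor cells and not in the host.

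Myostatin is a secreted protein made by muscle fibres that restrains muscle growth, and mice and cattle without it carry enlarged muscles. Myostatin and the activins bind a type II receptor (ACVR2A or ACVR2B), which recruits a type I receptor such as ALK4, the product of Acvr1b, and the pair phosphorylates SMAD2 and SMAD3, which enter the nucleus with SMAD4. Follistatin (Fst) and follistatin-like 3 (Fstl3) capture the ligands outside the cell, SMAD7 blocks the receptors from inside, and the pathway is well known as a driver of muscle loss and as a drug target in wasting.

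The sequences upstream of the 3 ligand genes are shown because these are the genes whose transcription sets the supply of ligand, and they differ plainly in composition. RefSeq (GRCm38.p6) promoters were used for 8 of the 10 genes, and none was used for Fst and Smad7. Each line holds the 250 bases before the start site, 5′ to 3′ on the strand of the gene, at chr1:53061390-53061639 (plus strand) for Mstn, chr13:16011601-16011850 (plus strand) for Inhba and chr1:119422249-119422498 (minus strand) for Inhbb. Capitals mark CAGACA, the short SMAD site, or CANNTG, the E-box bound by myogenic factors such as MyoD, on either strand.
Mstn: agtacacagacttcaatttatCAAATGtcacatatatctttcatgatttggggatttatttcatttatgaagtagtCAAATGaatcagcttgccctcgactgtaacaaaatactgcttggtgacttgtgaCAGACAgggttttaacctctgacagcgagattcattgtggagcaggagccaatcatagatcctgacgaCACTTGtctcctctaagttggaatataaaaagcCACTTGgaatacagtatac
Inhba: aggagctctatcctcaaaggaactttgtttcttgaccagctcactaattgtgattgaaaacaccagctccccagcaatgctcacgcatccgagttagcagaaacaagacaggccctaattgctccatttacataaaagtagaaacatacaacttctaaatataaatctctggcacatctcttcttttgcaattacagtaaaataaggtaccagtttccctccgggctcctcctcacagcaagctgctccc
Inhbb: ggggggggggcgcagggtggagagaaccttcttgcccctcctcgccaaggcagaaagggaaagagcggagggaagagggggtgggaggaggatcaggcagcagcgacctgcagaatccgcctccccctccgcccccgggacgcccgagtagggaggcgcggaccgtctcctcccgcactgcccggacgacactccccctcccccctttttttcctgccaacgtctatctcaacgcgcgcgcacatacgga
The Mstn sequence held 4 E-boxes, starting 229, 174, 52 and 19 bases before the start site, and 1 short SMAD site 120 bases before it, whereas those of Inhba and Inhbb held neither. Bases G and C made up 38.4% of the Mstn sequence, 43.2% of that of Inhba and 68% of that of Inhbb. Over the window of 300 bases, which adds 50 bases after the start, the short SMAD site occurred in 2 of 8 members (Mstn and Fstl3, where it overlaps an E-box) and in 21% of 32851 mouse promoters, and the E-box in 3 of 8 members (Mstn, Fstl3 and Acvr1b) and in 72.3% of promoters. The SMAD palindrome GTCTAGAC, the FoxO motif GTAAACA, the STAT motif TTCNNNGAA and the glucocorticoid receptor motif were each found in 0 of 8 members, and in 0.213%, 3.65%, 8.3% and 0.475% of promoters. A match says that these letters are there and does not show binding.

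Some libraries stood apart in ways that the groups do not explain. Of 13210 genes with a mean of at least 1 CPM (read counts relative to library size, TMM-scaled), 0 separated the 8 mice labelled BALB/c from the 8 labelled C57BL/6 without overlap and by at least 2-fold, while 47 separated CAC replicate 4, AM replicates 1 and 3 and KD replicate 1 from the other 12, a split chosen after the data were seen. Nnt (ENSMUSG00000025453), which is deleted in part in the C57BL/6J substrain, was at 44 to 112 CPM in those 4 libraries and at 5.73 to 21.5 CPM in the other 12. A second entry of that symbol (ENSMUSG00000116207) did not separate them, at 50.7 to 202 CPM in the 4 and 19.1 to 60.3 CPM in the 12. The strain labels should therefore be read with care. The 5 summed B and T cell markers were under 2 CPM in NOR replicate 1, CAC replicates 1 and 4 and KD replicates 2 and 3 and at 20.5 to 235 CPM elsewhere, 3 liver markers reached 1360 CPM in AM replicate 1, and 4 male markers were at 0 in KD replicate 3. For each edgeR call on a member or a pathway gene named below that ended without the 4 libraries, the value without them is given. The 5 muscle fibre markers (Acta1, Ckm, Myh4, Tnnt3 and Ttn) summed to 50100 to 158000 CPM in the 16 libraries.

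Measured per gene length as FPKM, Smad3 was the most abundant of the 10 genes, with a mean of 58.8 over the 16 mice, followed by Mstn at 27.2 and Acvr1b, the type I receptor, at 25.6. Smad7 and Acvr2a followed at 7.81 and 6.94, Acvr2b and Fst at 3.66 and 3.13, Inhbb and Fstl3 at 2.35 and 2.05, and Inhba was the least abundant at 0.697 (75 to 204 reads per library). By group, Acvr1b had a higher mean than Mstn in CAC (33.5 against 31.2 FPKM) and in KD (28 against 24.4 FPKM), but not in NOR or AM. Within NOR, Smad3 (51.45 to 95.54 FPKM) lay above Mstn (23.69 to 36.15 FPKM) in every mouse, but Mstn overlapped Acvr1b (14.94 to 28.00 FPKM), Smad7 (4.22 to 8.65 FPKM) overlapped Acvr2a (4.34 to 6.97 FPKM), and Fst (2.55 to 6.24 FPKM) overlapped Acvr2b (3.14 to 4.44 FPKM). The lower end of the NOR order had no such overlap: Fstl3 (1.52 to 2.20 FPKM) lay above Inhbb (1.00 to 1.45 FPKM), and Inhbb above Inhba (0.48 to 0.84 FPKM). In CAC the places of both ligand and antagonist moved, since Inhbb (2.98 ± 1.56 FPKM, SD, n = 4) stood above Fst (2.07 ± 0.516 FPKM, SD, n = 4) although their ranges overlapped, whereas in NOR Inhbb (1.23 ± 0.23 FPKM, SD, n = 4) lay below Fst (3.98 ± 1.66 FPKM, SD, n = 4) in every mouse. In these whole-muscle samples fewer cells of a type and less RNA per cell cannot be told apart.

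**Figure D1:**
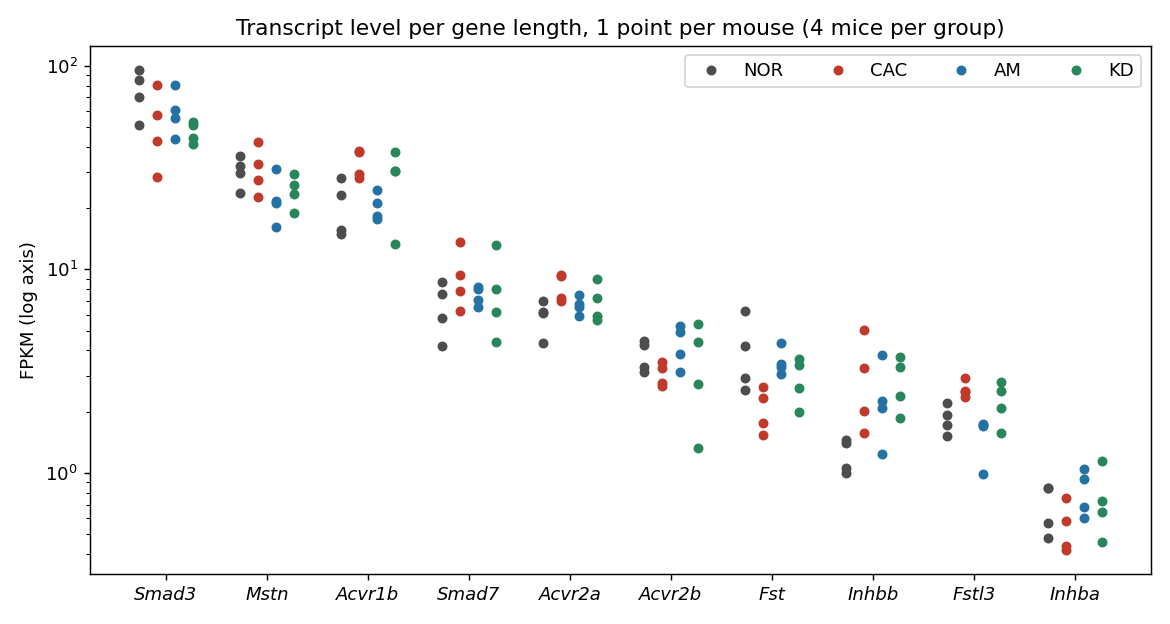
FPKM (log axis) of each of the 10 genes in each mouse, coloured by group (4 mice per group), with genes ordered by their mean over the 16 mice. Smad3 (mean 58.8), Mstn (27.2) and Acvr1b (25.6) form the upper tier and Inhba (0.697) the bottom, and the Inhbb points of NOR (1.00 to 1.45) lie below those of CAC (1.58 to 5.06).

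The first question was whether tumor-bearing muscle differed from normal muscle (CAC vs. NOR). Inhbb, which encodes the activin B subunit, was the 1 gene of the 10 that rose past the limits of the study (an FDR of 0.05 or less, and 1.5-fold or more in either direction), while Mstn itself was at nearly the same mean level in both groups. The antagonist Fst and the type II receptor Acvr2b were lower in all CAC mice than in any NOR mouse without passing the FDR limit. With edgeR's quasi-likelihood test 9.45% of the 14666 genes tested passed the limits (4.32% higher and 5.13% lower in CAC), 29.1% had an unadjusted p under 0.05, and 23.3% did not overlap between the groups. The 10 members had 1 called, 4 at an unadjusted p under 0.05 and 3 without overlap, which lies near that background. DESeq2 called 2, Inhbb and Fst, where it called 13.2% of all genes with an adjusted p. All 10 members were tested in every comparison. Their median log2 fold change was 0.16, against 0.01 for all genes tested.

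**Figure D2:**
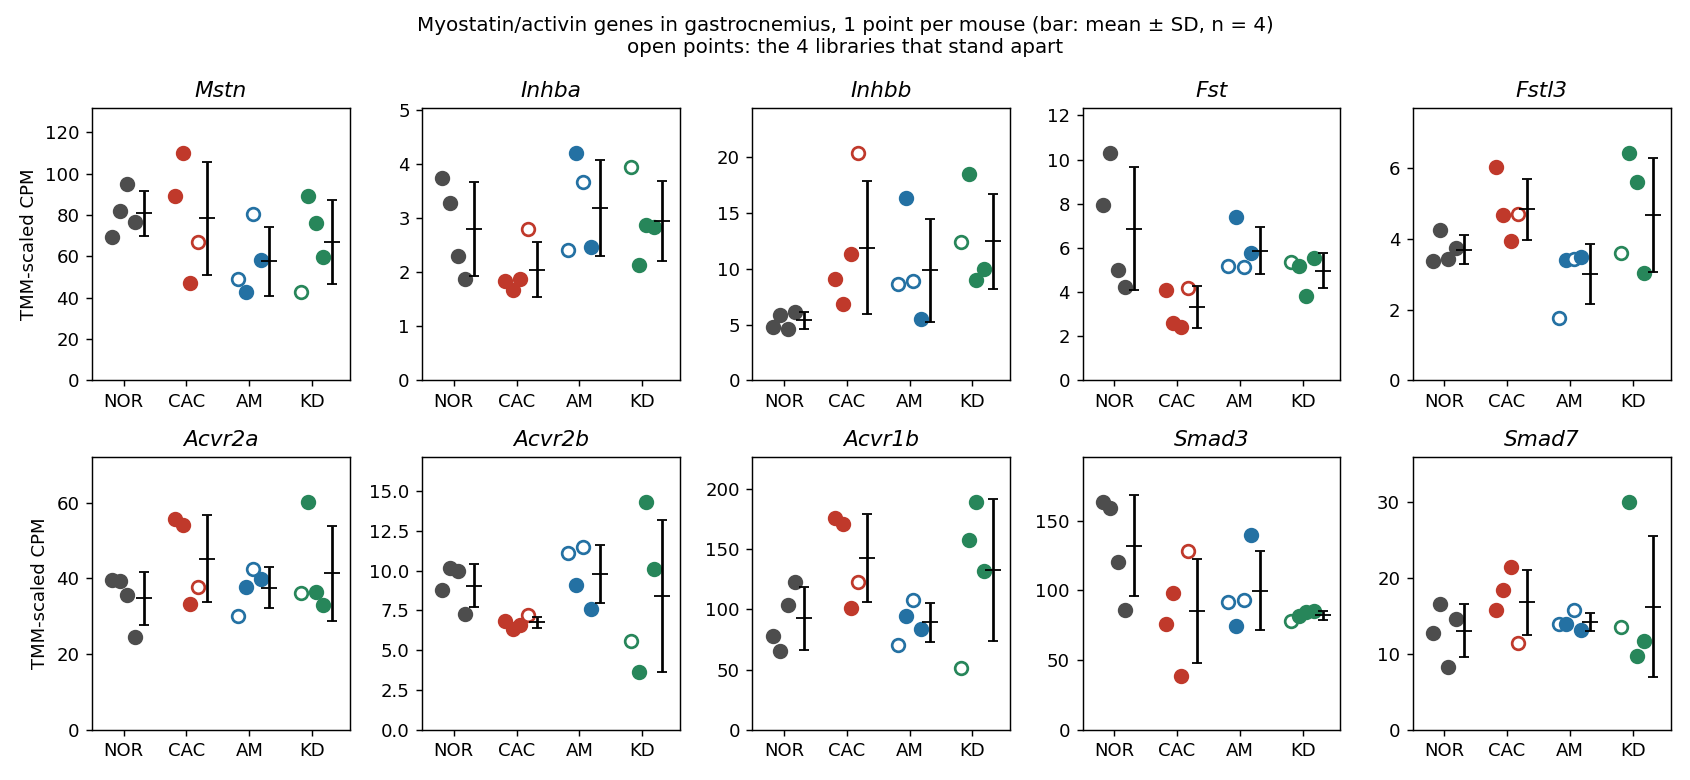
TMM-scaled CPM of the 10 genes in each mouse of NOR, CAC, AM, and KD, with replicates 1 to 4 from left to right, the mean ± SD (n = 4) beside them, axes starting at 0, and open points for the 4 libraries that stand apart. Inhbb is higher in all CAC mice (6.81 to 20.4) than in any NOR mouse (4.60 to 6.15), and Fst is lower in all CAC mice (2.39 to 4.20) than in any NOR mouse (4.24 to 10.3).

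Among the ligands, Mstn (ENSMUSG00000026100) was at 69.4, 82.1, 94.9 and 76.7 CPM in the 4 NOR mice and at 89.4, 110, 47.2 and 66.9 CPM in the 4 CAC mice. The CAC mice enclosed the NOR range on both sides, with the mice labelled C57BL/6 high and those labelled BALB/c low. The log2 fold change was -0.05 ± 0.23 (SE) with a 95% interval of -0.57 to 0.47 (edgeR FDR = 0.919), and that interval lies within a 1.5-fold change in either direction. Inhba (ENSMUSG00000041324), the activin A subunit, was at 3.75, 3.29, 2.30 and 1.87 CPM in NOR and at 1.83, 1.68, 1.87 and 2.80 CPM in CAC. These groups overlapped, and the log2 fold change of -0.46 ± 0.294 (SE) had an edgeR FDR of 0.341.

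Inhbb (ENSMUSG00000037035; GENCODE M21, GRCm38, chr1:119415465-119422248, minus strand) was at 4.81, 5.90, 4.60 and 6.15 CPM in NOR and at 9.06, 6.81, 11.3 and 20.4 CPM in CAC. Every CAC mouse lay above every NOR mouse, and CAC replicate 4 was the highest of the 16 libraries. Mean levels were 5.37 ± 0.773 CPM in NOR and 11.9 ± 5.94 CPM in CAC (SD, n = 4), a 2.21-fold rise with a log2 fold change of 1.15 ± 0.32 (SE; edgeR FDR = 0.0483). The two-sided exact permutation test gave p = 0.0286, the smallest it can give for 4 against 4 mice. The call was a narrow one: only 5 of 22 alternatives kept the FDR within 0.05, and the FDR ranged from 0.00608 with DESeq2 to 0.285 in the mice labelled C57BL/6 alone. Without CAC replicate 4, which is also the 1 CAC library of those that stand apart, the log2 fold change was 0.76 (edgeR FDR = 0.0568), and without the 5 libraries low in B and T cell markers it was 0.74 (edgeR FDR = 0.181).

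**Figure D3:**
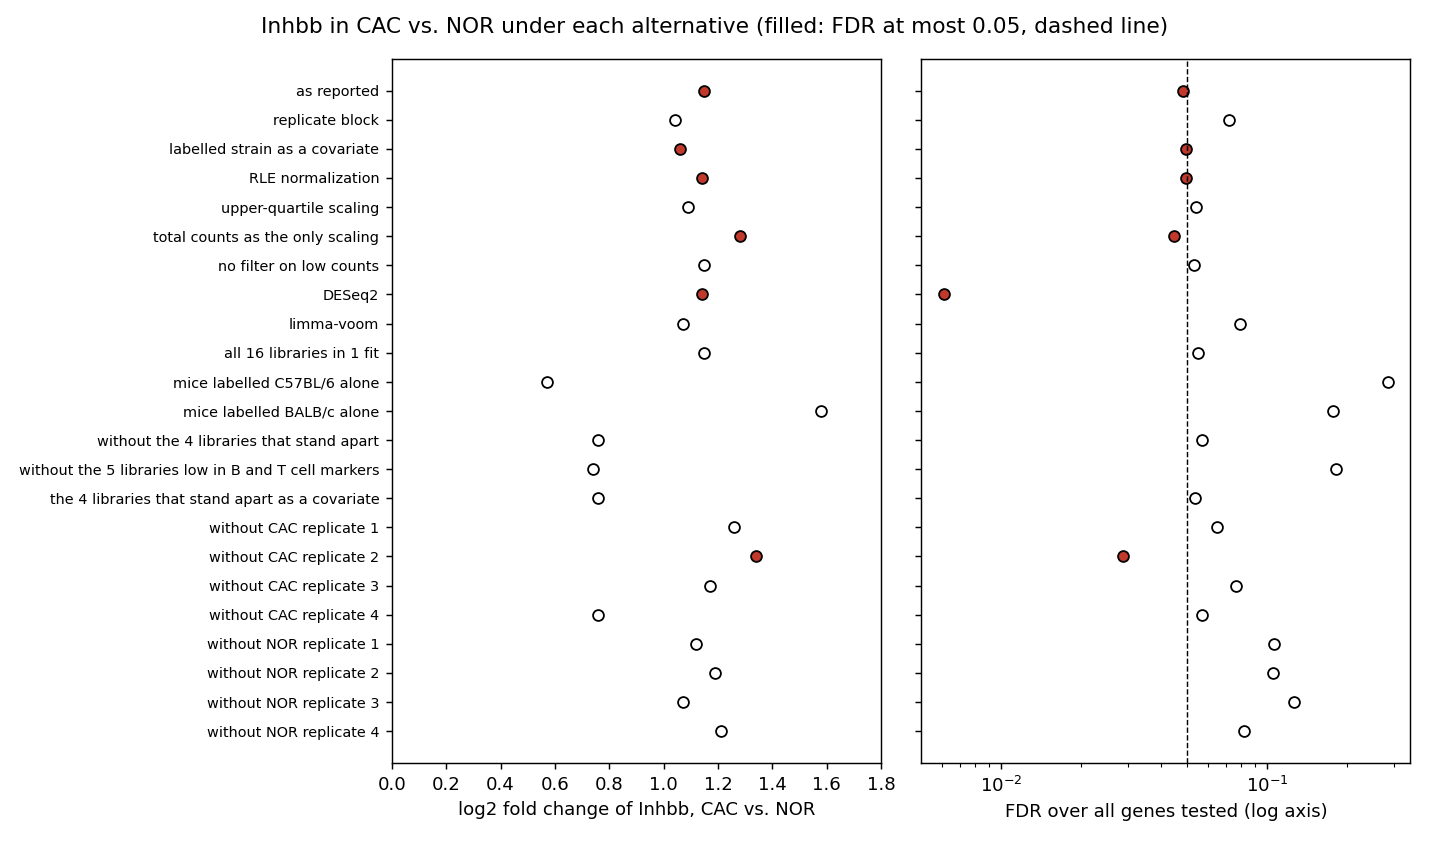
Log2 fold change of Inhbb in CAC vs. NOR (left) and its FDR over all genes tested on a log axis (right), as reported and under each of 22 alternatives, filled where the FDR is at most 0.05 (dashed line). The fold change stays above 0 throughout, between 0.57 and 1.58, and 5 of the 22 alternatives fall within the limit.

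Neither antagonist passed the limits. Fst (ENSMUSG00000021765; chr13:114452290-114458951, minus strand) was at 7.95, 10.3, 5.00 and 4.24 CPM in NOR and at 4.10, 2.60, 2.39 and 4.20 CPM in CAC. All CAC mice lay below all NOR mice, although NOR replicate 4 was close to the 2 highest CAC mice. Means were 6.88 ± 2.79 and 3.32 ± 0.965 CPM (SD, n = 4), a ratio of 0.48 with a log2 fold change of -1.06 ± 0.332 (SE; edgeR FDR = 0.0689). DESeq2 and a fit of all 16 libraries gave Fst FDR values of 0.0169 and 0.0285, and without NOR replicate 4 the edgeR FDR was 0.0495. Without the libraries that stand apart the log2 fold change of Fst was -1.19 (edgeR FDR = 0.0793), and without those low in B and T cell markers it was -1.36 (edgeR FDR = 0.139). Fstl3 (ENSMUSG00000020325) was at 3.37, 4.24, 3.43 and 3.75 CPM in NOR and at 6.03, 4.68, 3.94 and 4.69 CPM in CAC. Of the CAC mice, 1 lay within the NOR range, and the log2 fold change was 0.38 ± 0.17 (SE; edgeR FDR = 0.176). Exons of Fst and Fstl3 overlap genes on the other strand (Gm47040 and Prss57), as do those of Acvr2a (Orc4), and the library kit is not stated to keep strand, so reads of such partners cannot be told apart.

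Of the receptors, Acvr2b (ENSMUSG00000061393) was at 8.80, 10.2, 10.0 and 7.29 CPM in NOR and at 6.83, 6.36, 6.60 and 7.22 CPM in CAC. The CAC mice were tightly grouped, and all lay below the NOR mice, the nearest pair being 7.22 and 7.29 CPM. The log2 fold change of -0.43 ± 0.143 (SE) did not pass the FDR limit (edgeR FDR = 0.0813) and is smaller than the fold change limit. Acvr1b (ENSMUSG00000000532) went the other way, at 78.0, 65.2, 104 and 123 CPM in NOR and at 176, 171, 101 and 123 CPM in CAC. Both CAC mice labelled C57BL/6 were well above any NOR mouse, whereas of those labelled BALB/c CAC replicate 3 lay within the NOR range and CAC replicate 4 level with its highest mouse. The log2 fold change was 0.62 ± 0.235 (SE; edgeR FDR = 0.116), and in the mice labelled C57BL/6 alone it was 1.28 (edgeR FDR = 0.0397). Acvr2a (ENSMUSG00000052155), the other type II receptor, ranged from 24.6 to 39.6 CPM in NOR and from 33.3 to 55.8 CPM in CAC, with a log2 fold change of 0.37 ± 0.214 (SE; edgeR FDR = 0.295).

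Inside the cell, the signal carrier Smad3 (ENSMUSG00000032402) was at 163, 159, 120 and 86.1 CPM in NOR and at 75.7, 97.8, 38.8 and 128 CPM in CAC. The groups overlapped, and the lowest value of all 16 mice was that of CAC replicate 3, whose summed muscle fibre markers were also the lowest at 50100 CPM; their part in the result was not tested. The log2 fold change was -0.65 ± 0.35 (SE; edgeR FDR = 0.262). Smad7 (ENSMUSG00000025880), the inhibitor, ranged from 8.29 to 16.5 CPM in NOR and from 11.4 to 21.4 CPM in CAC, with a log2 fold change of 0.37 ± 0.255 (SE; edgeR FDR = 0.386).

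Markers of other cell types moved with this comparison, while those of muscle fibres did not pass. The 5 summed fibre markers were at 111000 to 158000 CPM in NOR and 50100 to 116000 CPM in CAC, with 1 CAC mouse inside the NOR range, and 0 of the 5 passed the limits, 1 (Acta1) having an unadjusted p under 0.05. The 4 summed fibroblast markers (Pdgfra, Col1a1, Col3a1 and Lum) were at 1330 to 1930 CPM in NOR and at 177 to 318 CPM in CAC, and 2 of the 4 passed the limits, both lower. The 3 neutrophil markers summed to 3.38 to 20.5 CPM in NOR and 78.9 to 180 CPM in CAC, and the 3 erythroid markers to 643 to 890 CPM in NOR and 2460 to 5680 CPM in CAC, and all of these passed, higher. The 3 tendon markers (Tnmd, Scx and Fmod) summed to 317 to 552 CPM in NOR and 57.7 to 152 CPM in CAC, with 2 of the 3 called, both lower. The 3 satellite cell markers (Pax7, Myf5 and Cdh15) summed to 29.7 to 52.9 CPM in NOR and 56 to 82.3 CPM in CAC. Of these, 1 was called, Cdh15, higher, while Pax7 and Myf5 had log2 fold changes below 0 (median of the 3, -0.29). The 3 endothelial markers (Pecam1, Cdh5 and Kdr) summed to 679 to 1080 CPM in NOR and 819 to 1150 CPM in CAC. Only Pecam1 was called, higher, while Cdh5 and Kdr had log2 fold changes below 0 (median of the 3, -0.08). Their part in the results for Inhbb, Fst and the other members was not tested.

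The next question was whether amiloride moved these genes in tumor-bearing mice (AM vs. CAC). None of the 10 passed the limits, with a lowest edgeR FDR of 0.0865, where 3.67% of the 14674 genes tested passed (1.63% higher and 2.04% lower in AM). At an unadjusted p under 0.05 there were 5 members (3 higher, 2 lower in AM), against 21.7% of all genes, and DESeq2 called 2, Fst and Acvr1b, against 7.84% of all genes. Fst and Acvr2b were higher in all AM mice than in any CAC mouse and Fstl3 was lower, and 15.3% of all genes did not overlap between these groups. Both comparisons share the CAC mice, so the values are set side by side and neither is read as support for the other.

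Fst was at 5.16, 7.40, 5.14 and 5.77 CPM in AM, above the 2.39 to 4.20 CPM of CAC in each mouse. The mean of 5.87 ± 1.06 CPM (SD, n = 4) gave a log2 fold change of 0.83 ± 0.237 (SE; edgeR FDR = 0.0865, DESeq2 FDR = 0.0185), which was 1.10 (edgeR FDR = 0.201) without the libraries that stand apart. Acvr2b was at 11.1, 9.12, 11.5 and 7.57 CPM in AM. All of these exceeded the highest CAC mouse (7.22 CPM), with a log2 fold change of 0.54 ± 0.16 (SE; edgeR FDR = 0.0912), which was 0.32 (edgeR FDR = 0.453) without the libraries that stand apart. Fstl3 was at 1.75, 3.39, 3.42 and 3.50 CPM in AM, all below the lowest CAC mouse at 3.94 CPM. AM replicate 1, the library with liver transcripts, was the lowest for Fstl3, and the log2 fold change was -0.68 ± 0.252 (SE; edgeR FDR = 0.16), or -0.52 (edgeR FDR = 0.394) without the libraries that stand apart. Acvr1b was at 70.1, 94.8, 108 and 83.7 CPM in AM, overlapping the lowest CAC mouse (101 CPM) only, with a log2 fold change of -0.68 ± 0.197 (SE; edgeR FDR = 0.088, DESeq2 FDR = 0.0229), or -0.76 (edgeR FDR = 0.254) without the libraries that stand apart.

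Ligand transcripts did not pass in AM vs. CAC either. Inhbb was at 8.67, 16.4, 8.90 and 5.49 CPM in AM, spread over the ranges of both NOR and CAC. The log2 fold change from CAC was -0.27 ± 0.404 (SE; edgeR FDR = 0.764), and its interval of -1.19 to 0.65 includes both 0 and the size of the difference between CAC and NOR. Without the libraries that stand apart the sign turned, at 0.25 (edgeR FDR = 0.864). Mstn was at 49.2, 42.5, 80.6 and 58.0 CPM in AM, with a log2 fold change of -0.44 ± 0.276 (SE; edgeR FDR = 0.412). Inhba was at 2.41, 4.21, 3.67 and 2.47 CPM in AM, and 2 of these 4 mice lay within the CAC range (log2 fold change 0.64 ± 0.269, SE; edgeR FDR = 0.212). Acvr2a, Smad3 and Smad7 had log2 fold changes of -0.27, 0.24 and -0.25, with edgeR FDR values of 0.452, 0.738 and 0.53. The summed fibroblast markers stood at 913 to 1500 CPM in AM, and 2 of the 4 passed the limits, higher than in CAC. The tendon markers were at 260 to 375 CPM, with 2 of 3 called higher. The satellite cell markers were at 37.7 to 50.8 CPM, with Cdh15 called lower but Pax7 and Myf5 at log2 fold changes above 0 (median of the 3, 0.1). The part of these cell types in the results was not tested.

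**Figure D4:**
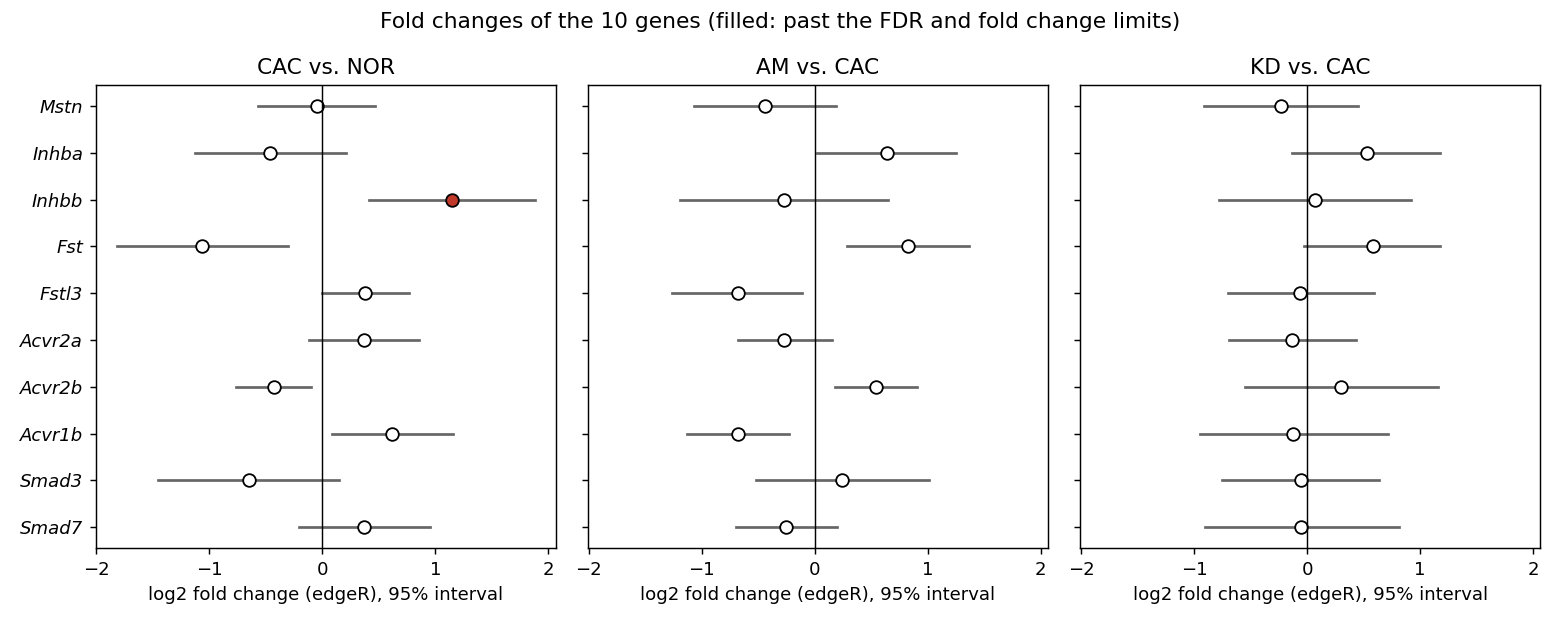
Log2 fold change of each gene with its 95% interval (edgeR) for CAC against NOR and for AM and KD against the same CAC mice, filled where the gene passed the FDR and fold change limits. Only Inhbb in CAC vs. NOR (1.15) is filled, and the Mstn intervals include 0 in all 3 panels.

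The knock-down of Rab27 in the tumor was compared in the same way (KD vs. CAC). No member passed the limits or an unadjusted p under 0.05, and the lowest edgeR FDR was 0.465, for Fst. Among the 14593 genes tested, 0.00685% passed the limits (1 gene, the interleukin 6 receptor gene Il6ra, named after its value was seen), 11.1% had an unadjusted p under 0.05 and 7.29% did not overlap between groups, while 0 of the 10 members did. DESeq2 also called 0 members, against 2.33% of all genes. Fst was at 5.35, 5.16, 3.80 and 5.54 CPM in KD, above all CAC mice in 3 of 4, with a log2 fold change of 0.58 ± 0.264 (SE). Inhbb stayed at the CAC level, at 12.4, 18.5, 9.01 and 10.0 CPM, with a log2 fold change of 0.07 ± 0.371 (SE; interval -0.78 to 0.92; edgeR FDR = 0.979). Mstn was at 42.7, 89.2, 76.0 and 59.7 CPM in KD (log2 fold change -0.23 ± 0.299, SE; edgeR FDR = 0.849).

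The KD mice were unlike one another. Acvr2b was at 5.60, 3.65, 14.3 and 10.1 CPM, so that this group held both the lowest and the highest value of the 16 mice. Acvr1b was at 51.4, 158, 189 and 132 CPM, again both extremes of the series. Fstl3 was at 3.59, 6.43, 5.62 and 3.03 CPM, high in replicates 2 and 3 and low in replicates 1 and 4. The summed fibroblast markers were at 1950, 355, 279 and 2080 CPM in the same 4 mice, low where Fstl3 was high. Summed macrophage (146, 27.1, 17 and 132 CPM), adipocyte, tendon and B and T cell markers were also lower in replicates 2 and 3. Those of muscle fibres, slow fibres, satellite cells and endothelium were highest in those 2 replicates. The part of these cell types in the Fstl3 values was not tested. Smad3 was at 77.8, 81.4, 84.2 and 84.8 CPM, and for Smad3 and Fst the SD in KD (3.24 and 0.793 CPM) was the smallest of the 4 groups.

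Set against NOR, neither treated group held a called member or a called gene of any kind (edgeR; 0% of 14738 genes in AM vs. NOR and 0% of 14748 in KD vs. NOR). At an unadjusted p under 0.05 there were 2 members in each comparison, against 9.19% and 3.54% of all genes tested, 0 members lay without overlap in AM vs. NOR, against 5.11% of genes, and DESeq2 called 70 genes (0.476%) with 0 members and 31 genes (0.211%) with 1 member. That member was Inhbb, whose KD mice (9.01 to 18.5 CPM) all lay above the NOR mice (4.60 to 6.15 CPM), with a log2 fold change of 1.22 ± 0.25 (SE; edgeR FDR = 0.999, DESeq2 FDR = 0.0107), and the same size, 1.22 (edgeR FDR = 0.758), without the libraries that stand apart. In AM vs. NOR its log2 fold change was 0.89 ± 0.304 (SE; edgeR FDR = 0.527), with 1 AM mouse inside the NOR range. Inhbb thus had a mean of 11.9, 9.87 and 12.5 CPM in the 3 tumor-bearing groups and 5.37 CPM in NOR, and these 3 comparisons share the NOR mice. The neutrophil markers summed to 8.65 to 111 CPM in AM and 10.4 to 196 CPM in KD, and the erythroid markers to 618 to 10300 CPM in AM and 1430 to 13700 CPM in KD. In AM and in KD against NOR 0 of these 6 markers were called, all 6 had an unadjusted p under 0.05 with log2 fold changes above 0, and their part in the Inhbb values was not tested. Smad3 was lower in all KD mice (77.8 to 84.8 CPM) than in any NOR mouse (86.1 to 163 CPM), at a log2 fold change of -0.68 ± 0.197 (SE; edgeR FDR = 0.999). Groups without overlap made up 2.26% of all genes in KD vs. NOR. Mstn was lower in AM than in NOR by a log2 fold change of -0.48 ± 0.192 (SE; edgeR FDR = 0.531), with 1 AM mouse inside the NOR range. In AM vs. KD, 0% of 14745 genes and 0 members were called by edgeR, 1.11% of genes and 0 members had an unadjusted p under 0.05, 0.956% and 0 members lay without overlap, and DESeq2 called 1 gene (0.00681%) and 0 members.

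By labelled strain, Mstn diverged in sign in CAC vs. NOR. In mice labelled C57BL/6 the CAC values (89.4 and 110 CPM) lay above the NOR values (69.4 and 82.1 CPM), and in mice labelled BALB/c they lay below (47.2 and 66.9 against 94.9 and 76.7 CPM). The difference between the log2 fold changes was 0.92 ± 0.288 (SE) with an unadjusted edgeR p of 0.0175 and an FDR of 0.941. For Inhbb the log2 fold change was 0.57 in mice labelled C57BL/6 and 1.58 in mice labelled BALB/c, and for Fst it was -1.44 and -0.47. Inhba also turned sign, at -1 and 0.18. For Acvr1b the values were 1.28 and 0.01, a difference of 1.22 ± 0.232 (SE) with an unadjusted edgeR p of 0.00158. No gene of the table passed an FDR of 0.05 for such a difference in any of the first 3 comparisons, and the lowest member FDR was 0.523 (Acvr1b) for CAC vs. NOR, 0.269 (Acvr2a) for AM vs. CAC and 0.854 (Inhbb and Acvr2b) for KD vs. CAC. In AM vs. CAC the log2 fold changes in mice labelled C57BL/6 and BALB/c were -1.1 and 0.26 for Mstn and 0.67 and -1.15 for Inhbb, and in KD vs. CAC those for Inhbb were 0.99 and -0.76. Acvr2a in AM vs. CAC (-0.68 and 0.19) and Acvr2b in KD vs. CAC (-0.48 and 0.79) also turned sign. With 2 mice of each label per group, these differences between labels were not detectable at the limits used.

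Around the 10 genes, 59 others of the activin, TGF-beta and BMP pathways were listed by role. In CAC vs. NOR 58 were tested, and 4 rose and 5 fell past the limits, where 4.32% of all genes rose and 5.13% fell. Their median log2 fold change was -0.07 against 0.01 for all genes. In AM vs. CAC 3 of 57 rose and 0 fell, where 1.63% of all genes rose and 2.04% fell (median 0.03 against 0.01). In KD vs. CAC 0 of 58 passed with edgeR, and 8 had an unadjusted p under 0.05, as did 11.1% of all genes. Of the 9 genes called in CAC vs. NOR, 5 (Fstl1, Bmp1, Tll1, Tgif1 and Bmp7) stayed within the FDR limit whichever mouse was left out. Without the 4 libraries that stand apart Bambi, Bmp4 and Id3 were no longer called (edgeR FDR = 0.0799, 0.0792 and 0.0552), and neither were the 3 genes of AM vs. CAC: Fstl1 (log2 fold change 0.76, edgeR FDR = 0.154), Bmp1 (0.97, edgeR FDR = 0.134) and Bmp7 (1.88, edgeR FDR = 0.115). That AM vs. CAC fit lacked CAC replicate 4 and AM replicates 1 and 3, and it called 0 genes of any kind.

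Among ligands, Gdf11, the closest relative of Mstn, fell from 15.3 ± 1.21 CPM in NOR to 6.83 ± 2.22 CPM in CAC (SD, n = 4; log2 fold change -1.17 ± 0.236, SE; edgeR FDR = 0.0164). Its values were 14.3, 16, 16.6 and 14.2 CPM in NOR and 8.19, 8.89, 6.31 and 3.94 CPM in CAC, with no overlap. The call ended without NOR replicate 3 (edgeR FDR = 0.0532) and, at a rounded edgeR FDR of 0.05, without NOR replicate 2. The AM and KD means lay between, at 12 and 11.4 CPM, with edgeR FDR values of 0.134 and 0.39 against CAC. Of these mice, AM replicate 1 (15.6 CPM) and KD replicate 1 (15.3 CPM) lay within the NOR range. Of the other 4 genes of this list (Inha and the 3 TGF-beta ligands) 0 were called, where 9.45% of all genes were.

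Among the genes listed as extracellular binding proteins or proteases, the secreted follistatin-like Fstl1 fell from 164 ± 18.4 to 86.8 ± 14.5 CPM in CAC vs. NOR (SD, n = 4, edgeR FDR = 0.00656). In AM it was at 146 ± 19.6 CPM (edgeR FDR = 0.0201 against CAC). Bmp1, a metalloprotease that cuts the myostatin propeptide and procollagens, fell from 49.6 ± 5.63 to 23.8 ± 6.75 CPM (SD, n = 4; edgeR FDR = 0.0122) and was at 43.4 ± 5.24 CPM in AM (edgeR FDR = 0.0392 against CAC). Its relative Tll1, of the same protease family, rose from 3.57 ± 0.938 to 7.84 ± 0.641 CPM (SD, n = 4; edgeR FDR = 0.0107). In AM Tll1 was at 8.1, 7.62, 7.67 and 2.49 CPM, within the CAC range in 3 of 4 mice (edgeR FDR = 0.692 against CAC). In KD both Fstl1 (154, 93.4, 85.9 and 199 CPM) and Bmp1 (50.1, 21.9, 27.4 and 58.9 CPM) were high in replicates 1 and 4 and low in replicates 2 and 3. The summed fibroblast markers were high and low in the same KD mice, as were those of macrophages, adipocytes, tendon and B and T cells. Their part in these values was not tested. In AM vs. CAC the Fstl1 call held in 3, and the Bmp1 call in 1, of the 8 fits that each left out 1 mouse.

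Inside the cell, Tgif1, a corepressor of SMAD-driven transcription, rose from 6.75 ± 0.82 CPM in NOR to 16.4 ± 3.79 CPM in CAC (SD, n = 4; log2 fold change 1.28 ± 0.186, SE; edgeR FDR = 0.00559). AM mice were at 5.58, 10.2, 6.56 and 11.4 CPM, all below the CAC mice (13.7 to 21.9 CPM), at an edgeR FDR of 0.0729. Bambi, a receptor decoy in the membrane, fell from 7.24 ± 1.72 to 4.34 ± 0.258 CPM (SD, n = 4; edgeR FDR = 0.0416), within the limit in 1 of the 8 fits that left out a mouse. The lists of 5 further activin and TGF-beta receptors and of 3 Smad3 target genes (Ccn2, Ltbp2 and Tgfbi) each held 0 called genes, against 9.45% of all genes, with medians of 0.45 and -0.20 and with 3 and 1 genes at an unadjusted p under 0.05, against 29.1% of all genes.

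In the BMP arm, which competes with the activin arm for type II receptors and for SMAD4, ligands went both ways. Bmp7 fell from 2.55 ± 0.239 to 0.776 ± 0.0783 CPM (SD, n = 4; log2 fold change -1.72 ± 0.198, SE; edgeR FDR = 0.00281) and was at 2.31 ± 0.714 CPM in AM (edgeR FDR = 0.0228 against CAC, within the limit in 2 of the 8 fits that left out a mouse). Bmp4 rose from 9.08 ± 2.76 to 16.9 ± 2.96 CPM (SD, n = 4; edgeR FDR = 0.0439, within the limit in 2 of 8 such fits) and was at 10.6, 16.3, 16.5 and 8.37 CPM in AM (edgeR FDR = 0.394 against CAC). Id3, a target gene of BMP signalling, rose from 47.1 ± 9.68 to 77 ± 12.4 CPM (SD, n = 4; edgeR FDR = 0.0267, within the limit in 3 of 8 such fits). The BMP receptors and BMP Smads held 0 called genes of 5 and of 4, against 9.45% of all genes, and 3 and 0 of them had an unadjusted p under 0.05, against 29.1%.

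**Figure D5:**
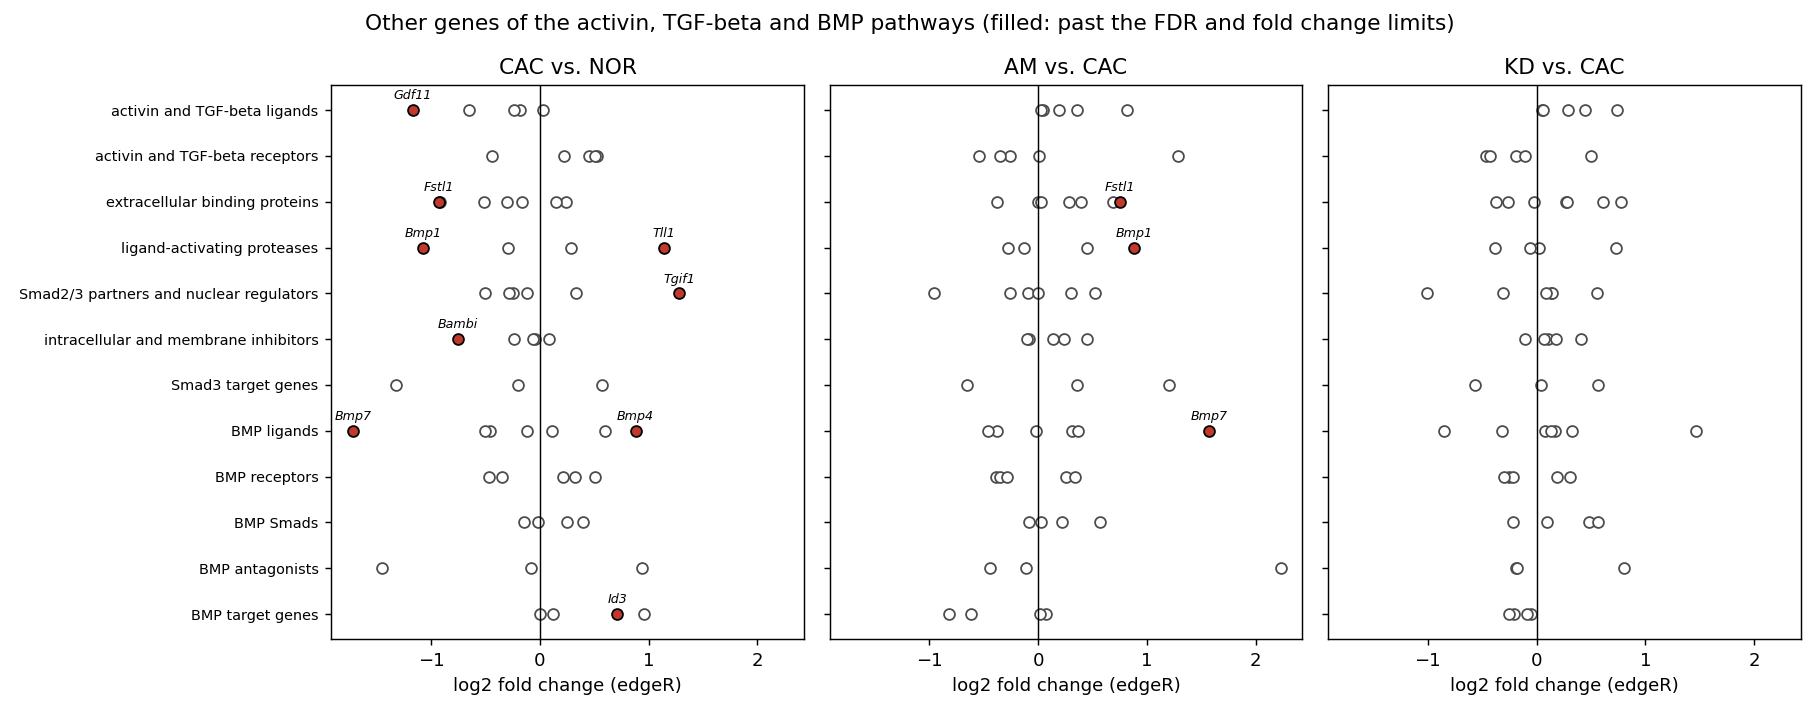
Log2 fold change of the other genes of the activin, TGF-beta and BMP pathways, 1 point per gene in rows by role, for CAC against NOR and for AM and KD against CAC, filled and named where a gene passed the FDR and fold change limits. The 9 filled points of CAC vs. NOR (4 higher, 5 lower) lie in 7 different rows, AM vs. CAC has 3 filled points, all higher, and KD vs. CAC has 0.

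The genes whose pattern over the 16 libraries was most like that of each member were found by the root-mean-square difference of log2 CPM scaled to a mean of 0 and an SD of 1, among 13209 genes. Nearest to Mstn were Napg and Scamp3, at 0.552 and 0.564 SD. Inhbb was nearest to Mxd1 and Ifitm3, at 0.546 and 0.55 SD, and Inhba to Gm9821 and Radil, at 0.504 and 0.51 SD. Among the receptors, Acvr1b was nearest to Lin52 and Gstm1 (0.399 and 0.426 SD), Acvr2a to Ppp2r3c and Eya4 (0.474 and 0.509 SD), and Acvr2b to Prrc2b and Ubn1 (0.534 and 0.546 SD). Fst was nearest to Tshz1 and Ism1 (0.448 and 0.459 SD), and Fstl3 to Atp6v1d and Hspa4 (0.499 and 0.51 SD). Smad3 had the closest match of the 10 genes, Igdcc4 at 0.391 SD, followed by Mrps11 at 0.499 SD, while Smad7 had the most distant, Rffl and Magoh at 0.598 and 0.635 SD. Between members the closest pair was Inhba and Fst, at 0.765 SD. All of these distances share the same 16 libraries and their differences in cell make-up.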

How the data were processed

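The authors enriched poly(A) RNA from total RNA and sequenced it on an Illumina HiSeq2500. The submitters' processing notes name fastp, Bowtie2, HISAT2 and StringTie 1.3.1 and the builds mm9 and GRCm38, without their roles. The deposited table holds, for each library, the raw counts of reads per gene, as whole numbers, beside FPKM values that the authors scaled to gene length and library size. AM libraries are titled T, and their treatment label names amiloride. The labels do not say whether a library is 1 mouse or a pool, and each was taken as 1 mouse.

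Counts were tested in R 4.3.3 with edgeR 4.0.16 (TMM; genes kept by filterByExpr at min.count 10 and min.total.count 15; quasi-likelihood F test), fitting the 8 libraries of each pair of groups, with Benjamini-Hochberg FDR over all genes tested. NOISeq, used by the authors, was not used here. Intervals are from the t distribution of that test. CPM values shown were TMM-scaled over all 16 libraries. Single genes were also compared by a two-sided exact permutation test. FPKM served for levels between genes. Alternatives used DESeq2 1.42.0, limma 3.58.1 (voom), other scalings, filters, covariates and subsets of mice. The scripts were tested on simulated data. Members, lists and named genes (all 10 members, list genes called in the first 3 comparisons up to 3 per list, and 2 nearest genes per member) were chosen with earlier results of these data known. Some genes first placed in these lists are not reported here and were left out of the list counts. Figures were drawn with matplotlib 3.10.9. No library repeated another: over all 120 pairs the lowest chi-square per degree of freedom was 47.6, far above counting error. Coordinates are from GENCODE M21 (GRCm38).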

Additional observations from a re-analysis of the deposited data

Results flagged for a closer look

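Of 40 checks of 1 gene in 1 group of 4 mice, 3 found a mouse whose gap to its nearest neighbour exceeded 0.829 of the range of the group (Dixon's criterion), where chance gives about 1 in 20. Inhba was at 2.8 CPM in CAC replicate 4 and at 1.68 to 1.87 CPM in the other CAC mice. Acvr2a was at 60.1 CPM in KD replicate 2 and at 32.9 to 36.4 CPM in the other KD mice. Fstl3 was at 1.75 CPM in AM replicate 1 and at 3.39 to 3.50 CPM in the other AM mice.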

How the results depend on the processing

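The alternatives that leave out or mark the 4 libraries that stand apart or leave out the 5 low in B and T cell markers were chosen after seeing the data. The count of 1 member called in CAC vs. NOR became 0 with the replicate block, upper-quartile scaling, no filter on low counts, limma-voom, the mice labelled BALB/c alone, without the 4 libraries that stand apart or with them as a covariate, and without the 5 libraries low in B and T cell markers, and became 2 with DESeq2 (Inhbb and Fst). It was 0 to 1 over the fits that each left out a mouse, and 0 in the other 5 comparisons. In some fits the count in CAC vs. NOR stayed at 1 with a member other than Inhbb. That member was Acvr1b in the mice labelled C57BL/6 alone, and Fst with all 16 libraries and without NOR replicate 4. In AM vs. CAC 1 member was called with total counts as the only scaling (Acvr1b) and 2 with DESeq2 (Fst and Acvr1b), and in KD vs. NOR 1 with DESeq2 (Inhbb). Of all genes, CAC vs. NOR called 1386, but 247 in the mice labelled C57BL/6 alone, 0 in those labelled BALB/c alone, 399 without the 5 libraries, and 729 to 1274 with a mouse left out. AM vs. CAC called 538, but 0 with the replicate block, in either label alone and without the 4 libraries, 18 without the 5 libraries, 231 with all 16 libraries, 339 with labelled strain as a covariate, 1121 with DESeq2, and 212 to 447 with a mouse left out. KD vs. CAC called 1, and 332 with DESeq2, 145 with all 16 libraries, 0 to 1 with a mouse left out and 0 or 1 otherwise. AM vs. NOR called 0, but 70 with DESeq2, 3 in the mice labelled BALB/c alone and 0 to 14 with a mouse left out. KD vs. NOR called 0, but 31 with DESeq2, 1 without the 4 libraries and 0 to 1 with a mouse left out, and AM vs. KD 0, but 1 with DESeq2. The cause of these differences was not tested.

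Of 1320 member values under alternatives 13 were called. Among the 1034 whose reported value had p of at least 0.05, 89 changed sign, and among the others 0 did. Total-count scaling moved the median of all genes by 0.125 log2 in CAC vs. NOR and by -0.115 in KD vs. CAC, and the share of calls that were higher in CAC from 45.7% to 60.7%. In AM vs. CAC the share of calls that were higher in AM was 44.4%, but 57.2% with DESeq2, 54.6% with upper-quartile scaling and 33.9% with labelled strain as a covariate. The replicate numbers do not pair the mice: same-numbered mice correlated at -0.702 to 0.684, and under the replicate block the log2 fold change of Inhbb in CAC vs. NOR was 1.04 (FDR = 0.072). The motif shares over the 250 bases alone were 17.1% for the short SMAD site and 66.2% for the E-box.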
